A study of Mus musculus with 4 samples.

Results

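Perineuronal nets are sheets of extracellular matrix around the soma and proximal dendrites of some neurons, and the genes described here encode their core parts. Hyaluronan chains made at the cell surface form the backbone, proteoglycans of the lectican family bind to it, link proteins hold that bond, and tenascins tie the lecticans together. In cortex the densest nets surround parvalbumin interneurons, while brevican, neurocan and the receptor phosphatase Ptprz1 are also widely made by astrocytes and by oligodendrocyte precursors. The members were 10 genes taken by symbol from a deposited table of 18854 genes: the lecticans Acan, Bcan, Ncan and Vcan, the link proteins Hapln1 and Hapln4, the tenascins Tnr and Tnc, Ptprz1, and the hyaluronan synthase Has3. All 10 were in the table, and all 10 passed the filter on low values that left 16654 genes for testing.

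The cells were wild-type mouse cortical neurons in culture, at day 15 in vitro, and all 4 libraries came from total RNA depleted of ribosomal RNA. Of these, 2 libraries came from neurons given the solvent DMSO and 2 from neurons given Nutlin-3, a small molecule that keeps Mdm2 from binding p53, for 2 days. The DMSO samples carry a treatment label that reads as untreated, and their titles were followed. No label says that the libraries of a group were separate cultures, so the p-values rest on spread between these libraries, which may be technical. For each gene, limma drew most of that spread from other genes (98.0 prior degrees of freedom beside 2 residual ones). A label of dose is not among the sources used here, and the drug was not checked by any value below.

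Libraries held 14584247 and 14968028 reads under DMSO and 19065197 and 17716272 under the p53 activator, and replicates of a group differed by more than sampling noise. Values are CPM, read counts scaled to a common library total. Nuclear protein-coding genes took 73.4% and 75.8% of that total in DMSO and 83.0% and 82.6% with the activator, so a protein-coding mRNA whose share of all mRNA stayed level has a higher CPM with the activator. Differences are therefore given on CPM and, where it alters the call, after rescaling to the protein-coding total. The median log2 fold change of nuclear protein-coding genes was 0.09 on CPM and -0.04 after that rescaling. In bulk RNA, fewer cells of a type and less RNA per cell cannot be told apart.

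The lectican genes each sit beside a link protein gene in the RefSeq annotation of GRCm38.p6, with 0 protein-coding genes between Acan and Hapln3, Bcan and Hapln2, Ncan and Hapln4, or Vcan and Hapln1. The 250 bases before the RefSeq start site of the 4 lecticans are shown because some of these genes were called and others were not. They lie on GRCm38.p6 at chr7:79052976-79053225 (plus strand), chr3:88000357-88000606 (minus strand), chr8:70120845-70121094 (minus strand) and chr13:89742513-89742762 (minus strand), and each is written on the gene's own strand. Capitals mark the GC box, GGGCGG or CCGCCC on the other strand, and in Ncan also the TATA box TATAAA, which there lies on the other strand.
Acan: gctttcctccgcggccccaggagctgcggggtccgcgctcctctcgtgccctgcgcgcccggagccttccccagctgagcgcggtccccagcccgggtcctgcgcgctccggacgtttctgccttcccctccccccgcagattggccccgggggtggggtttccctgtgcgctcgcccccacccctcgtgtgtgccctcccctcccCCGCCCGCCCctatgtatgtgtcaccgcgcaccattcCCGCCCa
Bcan: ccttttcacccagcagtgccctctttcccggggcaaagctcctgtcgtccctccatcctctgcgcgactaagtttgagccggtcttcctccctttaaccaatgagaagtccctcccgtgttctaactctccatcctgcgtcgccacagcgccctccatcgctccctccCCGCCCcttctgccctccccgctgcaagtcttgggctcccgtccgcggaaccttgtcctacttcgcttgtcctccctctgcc
Ncan: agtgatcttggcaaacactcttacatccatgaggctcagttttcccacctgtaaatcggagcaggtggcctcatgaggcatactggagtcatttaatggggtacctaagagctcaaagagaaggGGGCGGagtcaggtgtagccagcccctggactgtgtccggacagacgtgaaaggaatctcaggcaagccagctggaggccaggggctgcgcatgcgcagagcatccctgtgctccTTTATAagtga
Vcan: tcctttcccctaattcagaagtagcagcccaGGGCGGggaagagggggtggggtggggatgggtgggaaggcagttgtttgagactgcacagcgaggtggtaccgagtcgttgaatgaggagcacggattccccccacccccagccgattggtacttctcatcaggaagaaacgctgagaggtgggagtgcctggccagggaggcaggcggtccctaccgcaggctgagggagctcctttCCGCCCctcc

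GC boxes numbered 3 before Acan, 2 before Vcan and 1 each before Bcan and Ncan, and 32.7% of the 32851 windows of this length in the RefSeq table held at least 1 on either strand. Among the 4, the G and C content was highest before Acan, at 74.4%, and lowest before Ncan, at 54.4%. The letters of the TATA box, found in 12.4% of windows, were matched before Ncan and before Tnc. The Ncan match began at -11 from the start site, on the opposite strand. Those of Tnc began at -205 and -126, counted from different RefSeq start sites. Such a match does not show that the letters act as a TATA box. Sequence was found for 8 of the 10 genes; Hapln4 and Has3 had no entry. None of these 8 genes held a match to the p53 half-site consensus in the window, where 7.13% of all windows did, and the E-box CACGTG, found in 6.02% of windows, was also unmatched. A missing match says only that these letters are not in this window.

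The comparison of p53 activator with DMSO asks how the 10 mRNAs stood in cultures given a drug that keeps Mdm2 from p53. Of the 10 genes, Ncan, Tnr, Tnc and Acan rose on CPM, by 1.24-fold to 1.46-fold, and 0 fell (limma; 0 fell at an unadjusted p under 0.05, in edgeR or in DESeq2). The other 6, among them Bcan, Vcan and both link proteins, did not pass the test. That is 4 of 10, beside 16.9% of all genes tested that rose and 16.3% that fell by the same rule, and beside 21.2% and 7.19% of nuclear protein-coding genes. The median log2 fold change of the 10 was 0.16, beside 0.03 for all genes tested and 0.09 for nuclear protein-coding genes. In 7 of the 10 both activator libraries lay above both DMSO libraries, as for 36.6% of all genes tested and 45.2% of nuclear protein-coding genes. After rescaling to the protein-coding total the median of the 10 was 0.01 and Ncan alone was called, where 4.34% of protein-coding genes rose and 13% fell. Of the 4 genes that rose, none was called in every fit with a library left out. Their log2 fold changes in those fits lay between 0.21 and 0.53. Without DMSO replicate 1 the calls of Acan, Tnr and Tnc were lost. Without p53 activator replicate 2 those of Ncan, Acan and Tnc were lost, and Hapln1, not one of the 4, was called.

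**Figure D1:**
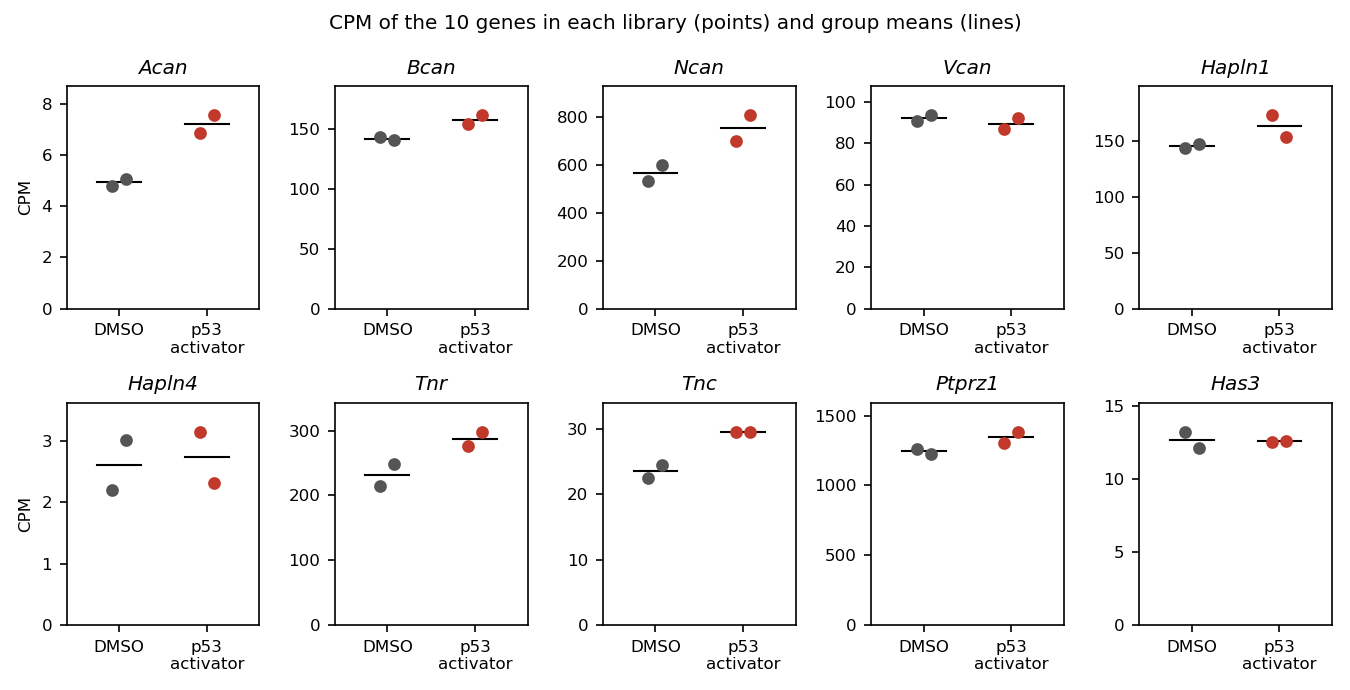
CPM of each gene (vertical axis, from 0) in the 2 DMSO and 2 p53 activator libraries (points), with group means (lines). Acan, Ncan, Tnr and Tnc have both activator points above both DMSO points and were called, while the groups of Vcan, Hapln4 and Has3 overlap.

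Neurocan, a secreted lectican abundant in developing brain, gave the smallest p of the set. Ncan measured 530.6 and 599.3 CPM under DMSO, against 697.8 and 806.6 CPM under the activator. The activator libraries were both higher, and the gap between them was wider than that between the DMSO libraries. The log2 fold change was 0.41 ± 0.09 (SE, n = 2 each), with a limma adjusted p of 0.000114. After rescaling to the protein-coding total Ncan still rose, by 0.26 ± 0.07 on the log2 scale (limma adjusted p = 0.00639). After cyclic loess the log2 fold change was 0.19 (limma adjusted p = 0.0484). The call was lost without p53 activator replicate 2 (0.31, limma adjusted p = 0.0550) and in limma with no trend (0.0694).

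Aggrecan is the lectican most closely tied to mature perineuronal nets, and its mRNA was scarce here. Acan had 70 and 76 reads under DMSO and 131 and 134 under the activator, which is 4.80 and 5.08 CPM against 6.87 and 7.56 CPM. The groups did not overlap, and the mean CPM was 1.46-fold higher with the activator. Its log2 fold change of 0.47 ± 0.17 (SE, n = 2 each) lay above that of 98.9% of nuclear protein-coding genes, with a limma adjusted p of 0.0247. The added pseudocount of 1 CPM understates the fold of so low a gene, and at a pseudocount of 0.1 the log2 fold change was 0.54. The call was lost after rescaling to the protein-coding total (0.34, 95% interval 0.01 to 0.67, limma adjusted p = 0.149), in DESeq2 (adjusted p = 0.164), with no filter on low values (limma adjusted p = 0.0576), without DMSO replicate 1 (limma adjusted p = 0.130), without DMSO replicate 2 (0.0534) and without p53 activator replicate 2 (0.157).

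Of the other lecticans, brevican and versican did not pass the test. Bcan, a lectican of mature brain, measured 143.4 and 140.4 CPM under DMSO, against 153.8 and 161.6 CPM under the activator. Its groups did not overlap, but the log2 fold change was 0.15 with a 95% interval of -0.001 to 0.30 (limma adjusted p = 0.121), and it was -0.03 after cyclic loess. Vcan, a lectican with large isoforms found around many cell types, measured 90.99 and 93.8 CPM under DMSO, against 87.0 and 92.2 CPM under the activator. Those groups overlap, and the log2 fold change was -0.04 with an interval of -0.20 to 0.11 (limma adjusted p = 0.710). Rescaled to the protein-coding total, Vcan stood at -0.19 (interval -0.34 to -0.04, limma adjusted p = 0.0612). The antisense gene Gm4117, singled out because it overlaps Vcan in GENCODE vM21, measured 5.14 and 5.61 CPM under DMSO, against 2.47 and 2.99 CPM under the activator; how reads were assigned by strand is not given in the sources used here, so reads of this pair cannot be told apart.

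**Figure D2:**
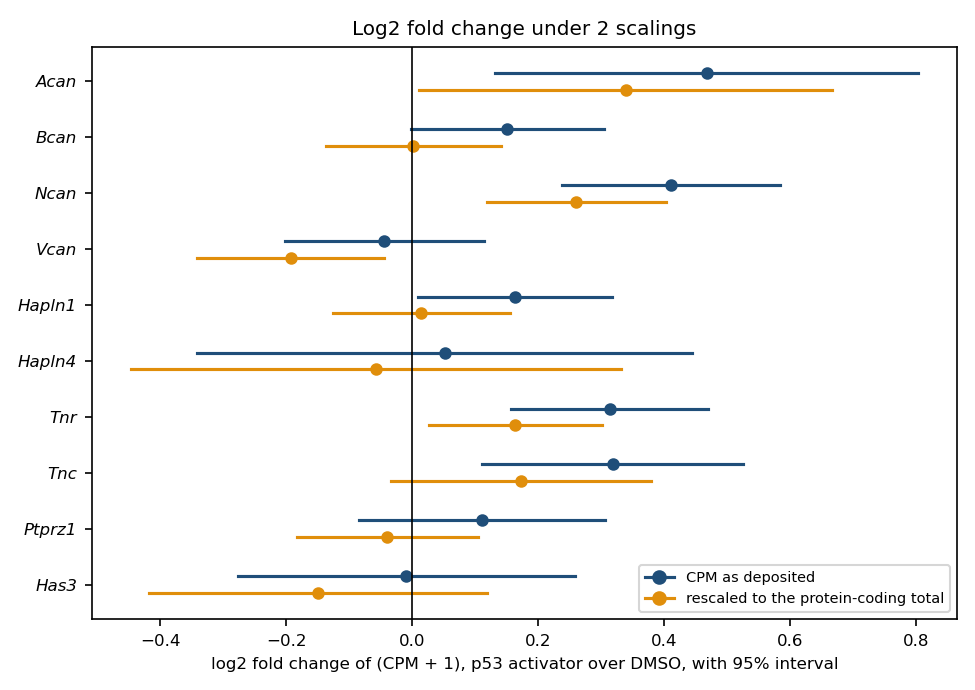
Log2 fold change of CPM + 1, p53 activator over DMSO, for each gene, with limma's 95% intervals as bars, for CPM as deposited (blue) and after rescaling to the nuclear protein-coding total (orange). The intervals of Ncan, Acan and Tnr lie above 0 under both scalings, and that of Vcan lies below 0 after rescaling, but only Ncan had an adjusted p under 0.05 under both.

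Ratios of reads between lecticans within 1 library do not depend on how libraries are scaled. For each read of Vcan there were 5.83 and 6.39 reads of Ncan in DMSO and 8.02 and 8.75 with the activator, a 1.37-fold higher mean ratio. Acan reads per Vcan read were 0.0528 and 0.0541 in DMSO and 0.0790 and 0.0820 with the activator, 1.51-fold higher. The ratio of Bcan to Vcan moved less, from 1.58 and 1.496 to 1.77 and 1.75. So Vcan took a smaller part of lectican reads in both activator libraries, against each of the other lecticans. These ratios are a description of the 4 libraries and were not tested.

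**Figure D3:**
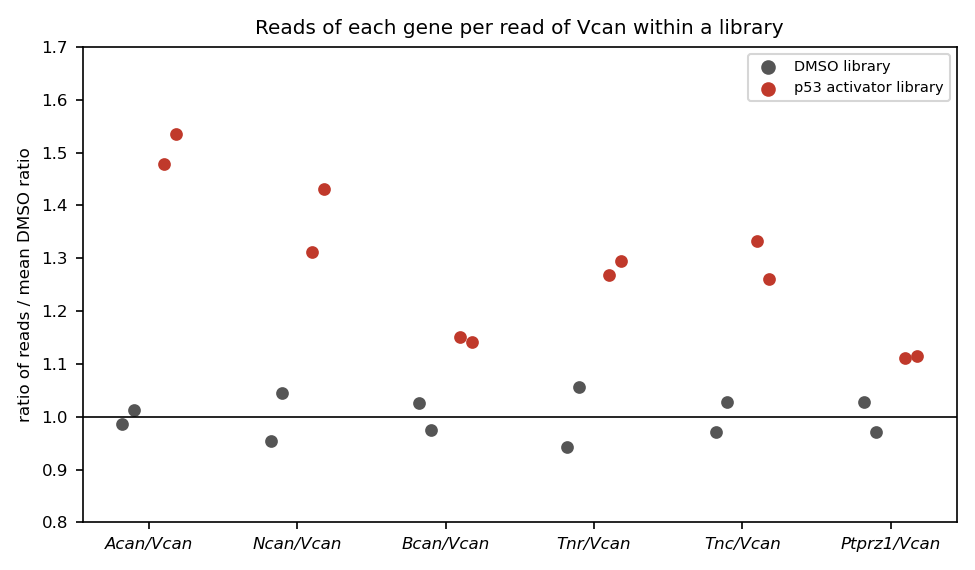
Reads of 6 genes per read of Vcan in each library, divided by the mean ratio of the DMSO libraries (vertical axis, which does not start at 0). Grey points are DMSO and red points p53 activator libraries. For all 6 genes both red points lie above both grey points, with Acan and Ncan the farthest. Hapln1, Hapln4 and Has3 are not shown, and the choice of these 6 genes and of Vcan followed no stated rule. Vcan had the lowest log2 fold change of the 10 genes (-0.04), so a higher ratio need not mean that the other gene rose.

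Per kilobase of merged exons in GENCODE vM21, the lecticans ranked Ncan, Bcan, Vcan and Acan in all 4 libraries. Ncan had 73.7 and 83.3 CPM per kilobase in DMSO and 97.0 and 112.1 with the activator. Bcan had 45.6 and 44.7 in DMSO and 49.0 and 51.4 with the activator, in the same unit. Vcan lay between 6.49 and 6.997 CPM per kilobase and Acan between 0.653 and 1.03. Over all 10 genes the order of mean levels in DMSO was Ptprz1, Ncan, Bcan, Hapln1, Tnr, Vcan, Tnc, Has3, Hapln4 and Acan, and the only neighbours whose DMSO libraries overlapped were Hapln4 and Acan. On this scale Ncan made up 58.1% and 61.4% of the lectican sum in DMSO and 63.2% and 65.4% with the activator, and Acan 0.515% and 0.509% against 0.609% and 0.5998%. Lengths came from an annotation other than the authors', which is not given, so these levels are approximate.

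The link proteins, which lock lecticans onto hyaluronan, did not pass the test. Hapln1 measured 143.4 and 147.3 CPM under DMSO, against 173.0 and 153.4 CPM under the activator. Both activator libraries were higher but far apart, the log2 fold change was 0.16 with a 95% interval of 0.01 to 0.32 (limma adjusted p = 0.0939), and it was -0.01 after cyclic loess. Without p53 activator replicate 2 Hapln1 passed the test (0.25, limma adjusted p = 0.0470). Per read of Acan, there were 29.9 and 29.0 reads of Hapln1 in DMSO and 25.2 and 20.3 with the activator. Acan had the highest log2 fold change of the 10 genes (0.47), so this lower ratio need not mean that Hapln1 fell. Hapln4, a link protein of mature nets, had 32 and 45 reads under DMSO and 60 and 41 under the activator, or 2.19 and 3.01 against 3.15 and 2.31 CPM. Its groups overlap, and the interval of its log2 fold change, -0.34 to 0.44, is too wide at this depth to show a change of the size seen for Ncan (limma adjusted p = 0.865). Its neighbour Ncan was called, but the difference between the pair was not tested.

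Both tenascins rose. Tnr, the tenascin that crosslinks lecticans in nets, measured 214.7 and 248.1 CPM under DMSO, against 276.1 and 298.6 CPM under the activator, a log2 fold change of 0.31 ± 0.08 (SE, n = 2 each; limma adjusted p = 0.00108). Tnc, a tenascin of immature astrocytes and of injury, measured 22.5 and 24.5 CPM under DMSO, against 29.5 and 29.6 CPM under the activator, a log2 fold change of 0.32 ± 0.10 (limma adjusted p = 0.0130). Neither gene's groups overlap. The transcript 8030451A03Rik, on the strand opposite Tnc, had at most 1.54 CPM in any library. There were 9.55 and 10.1 reads of Tnr per read of Tnc in DMSO and 9.37 and 10.1 with the activator, so their ratio overlapped between groups. Rescaled to the protein-coding total, neither was called, with log2 fold changes of 0.16 for Tnr (limma adjusted p = 0.0899) and 0.17 for Tnc (0.259). Without DMSO replicate 1 both calls were lost, with limma adjusted p of 0.121 for Tnr and 0.180 for Tnc, and without p53 activator replicate 2 that of Tnc was lost (0.0593). DESeq2 did not call Tnc (adjusted p = 0.128). Limma called neither after cyclic loess (adjusted p = 0.238 for Tnr and 0.112 for Tnc) nor with no trend (0.109 and 0.0806), and did not call Tnr after quantile normalization (0.0750).

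**Figure D4:**
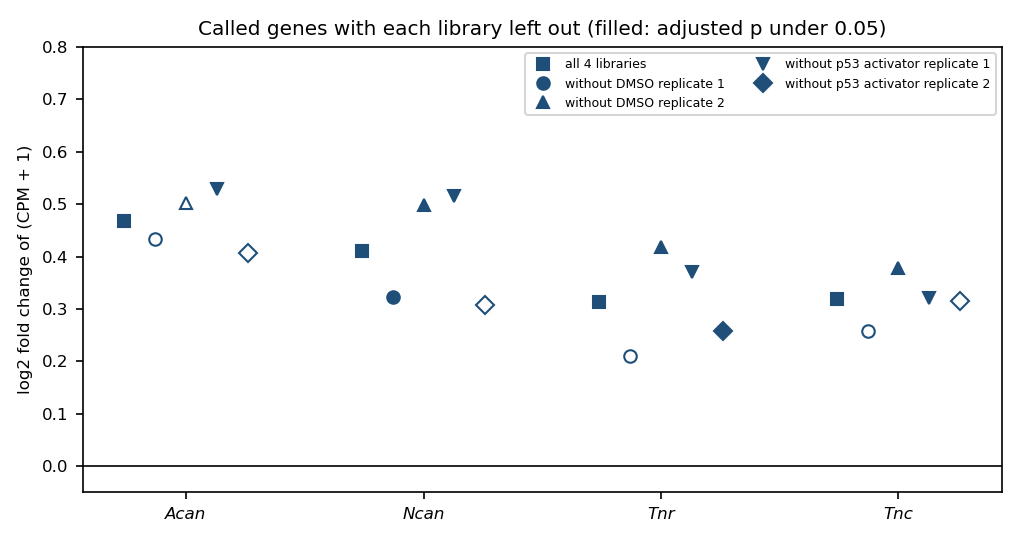
Log2 fold change of CPM + 1 for the 4 called genes with all 4 libraries (squares) and with each library left out in turn, where filled marks have a limma adjusted p under 0.05. All values stay above 0, between 0.21 and 0.53. Marks are open for Acan, Tnr and Tnc without DMSO replicate 1, and for Ncan, Acan and Tnc without p53 activator replicate 2. The mark of Acan is also open without DMSO replicate 2.

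Ptprz1, a receptor phosphatase that carries chondroitin sulfate and is also shed as the proteoglycan phosphacan, was the most abundant of the 10 per kilobase of exon. It measured 1261 and 1227 CPM under DMSO, against 1304 and 1386 CPM under the activator. The groups did not overlap, but the log2 fold change was 0.11 with a 95% interval of -0.08 to 0.31 (limma adjusted p = 0.406), and it was -0.04 after rescaling to the protein-coding total and -0.13 after cyclic loess. Ptprz1 reads per Ncan read were 2.38 and 2.05 in DMSO and 1.87 and 1.72 with the activator. Ncan had a log2 fold change of 0.41, so this lower ratio need not mean that Ptprz1 fell. Has3, which makes hyaluronan, measured 13.2 and 12.1 CPM under DMSO, against 12.5 and 12.6 CPM under the activator. Those groups overlap, and the interval of the log2 fold change was -0.28 to 0.26 (limma adjusted p = 0.964). Chtf8 overlaps Has3 on the opposite strand in GENCODE vM21 and is not listed in the table; how reads there were assigned by strand is not given.

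Among the candidates with a mean of at least 10 CPM, 9027 genes in all, the profiles nearest to Acan over the 4 libraries were those of Nup62, Tubb2a and Actb. Their root mean square differences from Acan in centred log2(CPM + 1) were 0.0120, 0.0149 and 0.0225. The pseudocount of 1 CPM shrinks the change of Acan, at 4.80 to 7.56 CPM, more than those of Tubb2a and Actb. These had at least 589.75 CPM in each library, so their differences from Acan depend on the pseudocount. Nearest to Ncan were Gabbr2, Aplp2 and Nptx1, at 0.00792, 0.00972 and 0.0119. The 4 libraries are few points, and they share their totals across genes.

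The sugar chains of lecticans are chondroitin sulfate, built on a xylose linker and then sulfated. Of 12 genes of chain synthesis, 3 rose and 0 fell (limma; 5 and 0 at an unadjusted p under 0.05, 3 and 0 in edgeR, 2 and 0 in DESeq2), with a median log2 fold change of 0.10. Those values lie near the 21.2% of nuclear protein-coding genes that rose and their median of 0.09, beside which the counts of the lists that follow also stand, with 7.19% that fell. Chpf, a chondroitin polymerizing factor, rose from 55.0 and 56.2 to 72.1 and 75.0 CPM, and its relative Chpf2 from 44.8 and 53.3 to 60.3 and 60.3 CPM. Fam20b, a kinase that phosphorylates the xylose of the linker, rose from 99.1 and 114.5 to 142.6 and 133.4 CPM. After rescaling to the protein-coding total 2 of the 3 rose, Chpf (limma adjusted p = 0.0211) and Fam20b (0.0258). The count was 1 in limma with no trend, 1 without DMSO replicate 1 and 5 without DMSO replicate 2.

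Of 9 tested genes of sulfation and epimerization, 4 rose and 0 fell (limma; 4 and 0 at an unadjusted p under 0.05, 2 and 0 in edgeR, 1 and 0 in DESeq2), with a median of 0.13. Chst11, which sulfates chondroitin at position 4, rose from 95.6 and 110.0 to 135.6 and 141.8 CPM (log2 fold change 0.43 ± 0.08 SE, limma adjusted p = 7.93e-06). The uronyl sulfotransferase Ust rose from 25.6 and 28.0 to 31.6 and 37.4 CPM, and Chst15, which adds a further sulfate to chondroitin, from 26.6 and 27.7 to 32.3 and 33.9 CPM. After rescaling, Chst11 alone rose (0.28, limma adjusted p = 0.00361). In limma with no trend the count was 0, Chst11 included, and it was 1 after cyclic loess, 1 without DMSO replicate 1 and 1 without p53 activator replicate 2.

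**Figure D5:**
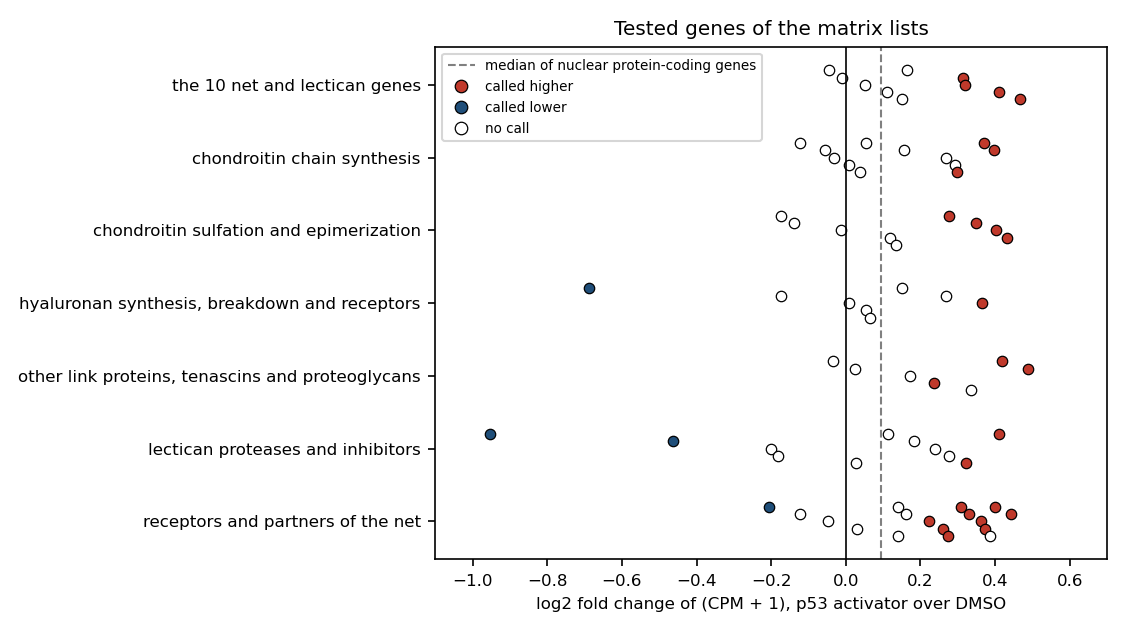
Log2 fold change of CPM + 1, p53 activator over DMSO (horizontal axis), of each tested gene in the 10 members and in 6 lists of related genes, with the vertical offset of points only for legibility. Red points rose, blue points fell and white points had no call; the dashed line is the median of nuclear protein-coding genes, 0.09.

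Around hyaluronan, 1 of 8 tested genes rose and 1 fell. Cemip, which breaks hyaluronan down, rose from 56.0 and 66.1 to 75.2 and 82.2 CPM, and after rescaling its limma adjusted p was 0.0530. Has1, a hyaluronan synthase, was scarce and fell from 2.88 and 2.27 to 1.57 and 0.903 CPM (log2 fold change -0.69 ± 0.21 SE, limma adjusted p = 0.00664). Has2 is not listed in the table. Without DMSO replicate 1 neither gene was called, and without p53 activator replicate 2 Has1 was not. Limma called Cemip neither with no trend nor after cyclic loess (adjusted p = 0.0528). Has1 was not called after quantile normalization or in DESeq2 (adjusted p = 0.0974), and a minimum of 5 CPM left it out of the test.

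Other brain proteoglycans included the 3 testicans, Spock1, Spock2 and Spock3, which carry heparan and chondroitin sulfate, and these were the 3 of 7 tested genes of that list that rose. Spock1 rose from 193.5 and 236.2 to 286.2 and 315.1 CPM (0.49 ± 0.08 SE, limma adjusted p = 7.13e-07), and Spock2 from 306.9 and 376.5 to 432.0 and 478.7 CPM. Spock3 rose from 88.5 and 93.6 to 111.9 and 103.1 CPM. Rescaled to the protein-coding total, Spock1 and Spock2 still rose (limma adjusted p = 0.000338 and 0.00503), and Spock3 was not called (0.457). In edgeR, without DMSO replicate 1 and without p53 activator replicate 1 the count was 2, in DESeq2 it was 1, and in limma with no trend it was 0, Spock1 and Spock2 included.

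Proteases that cut lecticans and their inhibitors went both ways, with 2 of 11 tested genes higher and 2 lower. Timp2, a metalloprotease inhibitor, rose from 303.9 and 354.4 to 416.9 and 457.5 CPM (0.41 ± 0.08 SE, limma adjusted p = 3.50e-05). Its scarce relative Timp1 fell from 2.26 and 2.67 to 0.787 and 0.790 CPM, and the protease Adamts20 fell from 11.7 and 10.5 to 7.97 and 7.56 CPM. The other that rose, Adamts1, was named after its values were seen and stood at 12.5 and 15.1 against 18.4 and 16.5 CPM. After rescaling 1 rose and 4 fell. Without DMSO replicate 1, 1 rose and 0 fell, without DMSO replicate 2, 3 and 1, without p53 activator replicate 1, 1 and 2, and without p53 activator replicate 2, 2 and 1, while edgeR gave 1 and 2 and DESeq2 1 and 1. After cyclic loess 1 rose and 3 fell, and in limma with no trend 0 rose, Timp2 included, and 2 fell.

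Of 17 tested receptors and partners, 9 rose and 1 fell, with a median of 0.26. Rtn4rl1, a receptor of the Nogo receptor family that binds chondroitin sulfate, rose from 34.4 and 38.9 to 46.8 and 53.6 CPM. The semaphorin receptors Plxna1 and Plxna4 rose from 193.0 and 224.2 to 253.0 and 297.9 CPM and from 309.9 and 370.6 to 410.3 and 470.7 CPM. These 3 were the ones that rose after rescaling, where 2 fell, with limma adjusted p of 0.0157, 0.0105 and 0.0211. The gene that fell was Ptn, a secreted ligand of Ptprz1, named after its values were seen: it measured 263.6 and 219.2 CPM under DMSO, against 196.5 and 221.2 CPM under the activator, and these groups overlap (-0.20 ± 0.08 SE, limma adjusted p = 0.0385). Of the list, 5 rose in edgeR, 4 in DESeq2, 2 without DMSO replicate 1, 3 without p53 activator replicate 2, 3 after quantile normalization, 2 after cyclic loess and 0 in limma with no trend, Rtn4rl1, Plxna1 and Plxna4 included. Ptn was not called in DESeq2 (adjusted p = 0.124), with no filter on low values, with size factors, with no trend, or without replicate 1 of either group.

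The cell types that could make these mRNAs were followed by marker lists, and their part in the results was not tested. Of 7 neuron markers 4 rose, with Tubb3, Slc17a7 and Snap25 at 0.55, 0.43 and 0.38 on the log2 scale, and 1 fell, Rbfox3 (-0.27), named after its values were seen, whose call was lost without DMSO replicate 1 or p53 activator replicate 2 (after rescaling 4 rose and 3 fell, after cyclic loess 2 and 3, and in limma with no trend 1 and 0); the summed level was 7244 and 8098 CPM in DMSO and 8090 and 8189 CPM with the activator. Of 9 tested interneuron markers 4 rose and 0 fell, led by Slc32a1 (0.58), Gad2 (0.34) and Gad1 (0.31), with sums of 1122 and 1210 against 1402 and 1374 CPM, and 2 of them rose after rescaling, 1 after cyclic loess and 1 in limma with no trend. Pvalb, which defines the interneurons that carry the densest nets, had 3, 2, 5 and 5 reads in the 4 libraries and was not tested.

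Of 10 astrocyte markers Slc1a2 alone rose (0.26), and the list median was 0.03, beside 0.09 for nuclear protein-coding genes. The sums were 2453 and 2411 against 2803 and 2774 CPM. Most of each sum came from Slc1a2 (mean 1310 against 1571 CPM) and Slc1a3 (562 against 641 CPM). Slc1a2 was not called after rescaling (limma adjusted p = 0.308), in edgeR, under quantile normalization, size factors, cyclic loess, no trend or no filter. Nor was it called when DMSO replicate 1 or either of the p53 activator libraries was left out. The 4 tested oligodendrocyte precursor markers had 0 calls in limma, edgeR and DESeq2 (3 were higher at an unadjusted p under 0.05, and limma called 1 higher after quantile normalization and 2 with the replicate number as a block), with sums of 154.3 and 146.9 against 170.7 and 169.0 CPM, and Olig1, the most abundant, at 111.6 and 104.6 against 124.7 and 118.4 CPM. The 5 progenitor markers also had 0 calls with these tools and 0 at an unadjusted p under 0.05, although 2 fell after rescaling and 2 after cyclic loess, with sums of 388.7 and 354.5 against 375.9 and 356.9 CPM and Fabp7 the most abundant. Oligodendrocyte, microglia, and vessel and fibroblast markers summed to between 2.88 and 31.9 CPM in every library, had 0 calls with these tools (0, 1 and 1 lower at an unadjusted p under 0.05, and 1 microglia marker fell after rescaling, in robust limma, with the block, without DMSO replicate 2 and without p53 activator replicate 1), and were led by Cnp, P2ry12 and Dcn; 3 of 6, 4 of 7 and 3 of 7 of their genes, among them Mog, Cx3cr1 and Cldn5, are not listed in the table.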

How the data were processed

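RNA-seq was done on 4 libraries, 2 per group. The authors deposited 1 table of CPM per library; the unit was read from the values, since columns sum to just under the total CPM implies and the values of a column share 1 step. Dividing by it gave whole reads, within 0.01 reads, for 100% of values. The submitters' processing notes name TopHat2, Cufflinks 2.0.0 and mm9, without roles; the sources used here give no counter, strand setting or annotation.

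Genes reaching 1 CPM in 2 or more libraries were tested on log2(CPM + 1) with limma 3.58.1 in R 4.3.3 (moderated, with a trend of spread with expression), two-sided, with Benjamini-Hochberg adjustment over all genes tested and calls at an adjusted p under 0.05. The 2 residual degrees of freedom were joined by 98.0 prior ones. The step was tested on simulated counts in which few genes changed, each by the same factor up or down. Those counts held no shift of the protein-coding share as seen here, so that test does not cover such a shift. Levels are given per library; SE and 95% intervals are limma's. Gene classes and lengths came from GENCODE vM21, where 15861 symbols matched 1 gene, and promoters from RefSeq on GRCm38.p6, where coordinates are of that build and not of the authors'. The protein-coding rescaling was fitted on nuclear protein-coding genes alone. Alternatives were other pseudocounts, filters, scalings, variance models, edgeR 4.0.16 with TMM and DESeq2 1.42.0 on the recovered reads, a replicate block and leaving out each library.

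The 10 genes, the lists and the naming rule were chosen with earlier results of these data known. The rule took the 10 genes, from each other list the 3 called genes with the smallest p or, with none called, the most abundant gene, and the 3 nearest profiles to Acan and to the gene with the smallest p. Of the lists, 14 besides the 10 genes were used.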

Additional observations from a re-analysis of the deposited data

How the results depend on the processing

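Of the 10 genes, 4 rose with all libraries and 0 fell under any of the 17 alternatives. The number that rose was 1 after rescaling to the protein-coding total, 2 after cyclic loess, 1 in limma with no trend (Acan), 2 in DESeq2, and between 1 and 4 when a library was left out. Over all genes, 2811 rose and 2721 fell. The genes that rose were 1632 under quantile normalization, 554 after rescaling, 642 after cyclic loess, 302 with no trend, 1786 in edgeR and 1156 in DESeq2, and 1140 to 2119 when a library was left out. Those that fell were 1776 at a minimum of 5 CPM, 1662 after rescaling, 1250 after cyclic loess and 1585 in DESeq2, and 1367 to 2543 when a library was left out. Fewer genes were tested at 5 CPM and among protein-coding genes; otherwise the cause was not tested.

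Signs turned only for genes with no call: Hapln4 (-0.057) and Ptprz1 (-0.039) after rescaling, Bcan (-0.025), Hapln1 (-0.014) and Ptprz1 (-0.131) after cyclic loess, and Has3 under quantile normalization (0.058). With a library left out Hapln4 ranged from -0.112 to 0.215 and Has3 from -0.070 to 0.051. With the replicate number as a block, 6 of the 10 rose, Bcan (limma adjusted p = 0.0445) and Hapln1 (0.0280) besides the 4. Calls also grew over all genes in that fit, where 3705 rose and 3132 fell. The labels do not say that a number marks a shared culture, and with 2 pairs the correlation of same-numbered deviations, 0.117, does not show it. Where leaving out a library left 1 sample in a group, that sample was assumed to vary like the others. Depth limits Hapln4 and Acan most.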
